A study of Mus musculus with 6 samples.

Results

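The genes of de novo fatty acid synthesis described here were 10 gene symbols: *Acly*, *Acaca*, *Acacb*, *Fasn*, *Scd1*, *Scd2*, *Elovl6*, *Thrsp*, *Srebf1* and *Mlxipl*. They were chosen by their known function, with earlier results of these data known, and all 10 were found among the 36144 symbols of the authors' gene table. Their levels were compared in bulk RNA-seq of whole inguinal white adipose tissue (iWAT) from 10-week-old female mice on the C57BL6/J background, 3 Cebpa_fl/fl and 3 Cebpa_ASKO. Mice of both genotypes carried the floxed *Cebpa* gene, were true littermates by the study's methods, ate chow and were randomly fed. Cebpa_ASKO mice also carried the AdipoQ-Cre transgene, whose promoter is that of the adiponectin gene, so Cre acts in adiponectin-expressing cells and the other cells of the depot keep *Cebpa*. The depots on both sides of 1 mouse were extracted together after removal of the lymph nodes, so that each library stands for 1 mouse, and the labels place all 6 in the same batch.

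De novo lipogenesis turns surplus carbohydrate carbon into fatty acids. Citrate leaves the mitochondrion and is split to acetyl-CoA by ATP citrate lyase (*Acly*), acetyl-CoA carboxylases (*Acaca* and *Acacb*) make malonyl-CoA, and fatty acid synthase (*Fasn*) builds palmitate from it at the cost of NADPH. ELOVL6 lengthens palmitate to stearate, and stearoyl-CoA desaturases (*Scd1* and *Scd2*) place a double bond. Known regulators of the pathway include SREBP-1c (*Srebf1*), which responds to insulin, and ChREBP (*Mlxipl*), which responds to glucose.

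The libraries held between 33141769 and 49477671 estimated counts, and levels are given as CPM after TMM scaling, a share of the library's counts that does not correct for transcript length. Genotypes matched their labels, with *Cebpa* between 448 and 498 CPM in Cebpa_fl/fl and between 37.2 and 45.8 CPM in Cebpa_ASKO (log2 fold change -3.55, standard error 0.131, Benjamini-Hochberg adjusted p = 0.000163 by edgeR's quasi-likelihood test). The defining markers of mature adipocytes were present in all libraries, and 5 of the 10 listed were called lower in Cebpa_ASKO (*Adipoq*, *Plin1*, *Cidec*, *Lpl* and *Pparg*), with none called higher. Their summed level ranged from 20450 to 23428 CPM in Cebpa_fl/fl and from 8739 to 11468 CPM in Cebpa_ASKO. In RNA from a whole depot, fewer cells of a type and less RNA per cell cannot be told apart. The library Cebpa_fl/fl 2 stood apart for the genes of this pathway: it was the lowest of the 6 libraries for all 10 of them, while 22.9% of the 16069 genes tested had their lowest value there. The fold changes of the 10 genes, and the sum and ratios that were tested, are therefore given with and without it. It was singled out by its values for these 10 genes, so the p-values and intervals without it are a description. Its *Cebpa* level was 465 CPM and its adipocyte marker sum was the highest of the 6 libraries. Its sum of 6 macrophage markers was also the highest, 1829 CPM against 700 to 1409 CPM in the other libraries, and its sum of 8 brown and beige adipocyte markers was the lowest, 160 CPM against 400 to 1424 CPM. Its sum of 10 mammary epithelium markers was the lowest as well, 593 CPM against 848 to 1738 CPM. The part of these in its low values was not tested. Cebpa_fl/fl 1 stood apart for lymphocytes, although the labels state that lymph nodes were removed: its sum of 6 lymphocyte markers was 208 CPM, against 3.80 to 9.54 CPM in the other libraries. Without Cebpa_fl/fl 1 the median log2 fold change of the 10 genes was 0.17 and 0 of the 10 were called by edgeR, with the lowest adjusted p at 0.332.

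The 10 genes of fatty acid synthesis varied less across the Cebpa_ASKO libraries than across the controls, and none passed the test for a difference between genotypes. All 10 passed the filter on low counts, and 0 of the 10 were called at an adjusted p below 0.05 by edgeR's quasi-likelihood test. Over all genes tested that test called 5.23%, 1.39% higher and 3.84% lower in Cebpa_ASKO. None of the 10 had an unadjusted p below 0.05 in that test either, against 19.8% of all genes. DESeq2, which called 10.7% of the genes to which it gave an adjusted p, also called 0 of the 10. With DESeq2, 3 of them (*Scd1*, *Scd2* and *Acacb*) had an unadjusted p below 0.05. The share of all genes below that unadjusted p in DESeq2 was not computed, so the count of 3 has no background beside it. The median log2 fold change of the 10 genes was 0.22 beside 0.02 over all genes tested, with 7 values above 0 and 3 below. It was -0.05 without Cebpa_fl/fl 2, with 4 values above 0 and 6 below. Without Cebpa_fl/fl 3, the highest control for all 10 genes, it was 0.68, and all 10 values were above 0, as they also were with limma on log2(TPM + 1), where the median was 0.53. Neither fit called any of the 10.

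The scale of the difference was set by the spread of the controls. On the log2 CPM scale, the SD among the 3 Cebpa_fl/fl libraries had a median of 1.08 over the 10 genes, and among the 3 Cebpa_ASKO libraries 0.172. Over all genes tested these medians were 0.200 and 0.162. The SD was larger in Cebpa_fl/fl for all 10 genes, and for 59.9% of all genes tested. Without Cebpa_fl/fl 2 the median SD of the 10 genes in the controls was 0.456, beside 0.129 for all genes tested. Within the controls the order was the same for each of the 10 genes, with Cebpa_fl/fl 2 lowest, Cebpa_fl/fl 1 between and Cebpa_fl/fl 3 highest. The share of all counts that fell on the 10 genes was 3.54%, 1.61% and 5.24% in Cebpa_fl/fl 1, 2 and 3, and 5.98%, 5.40% and 4.55% in Cebpa_ASKO 1, 2 and 3. *Scd1* alone made up 1.97%, 1.12% and 2.72% in the controls and 4.21%, 3.62% and 2.93% in Cebpa_ASKO.

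**Figure D1:**
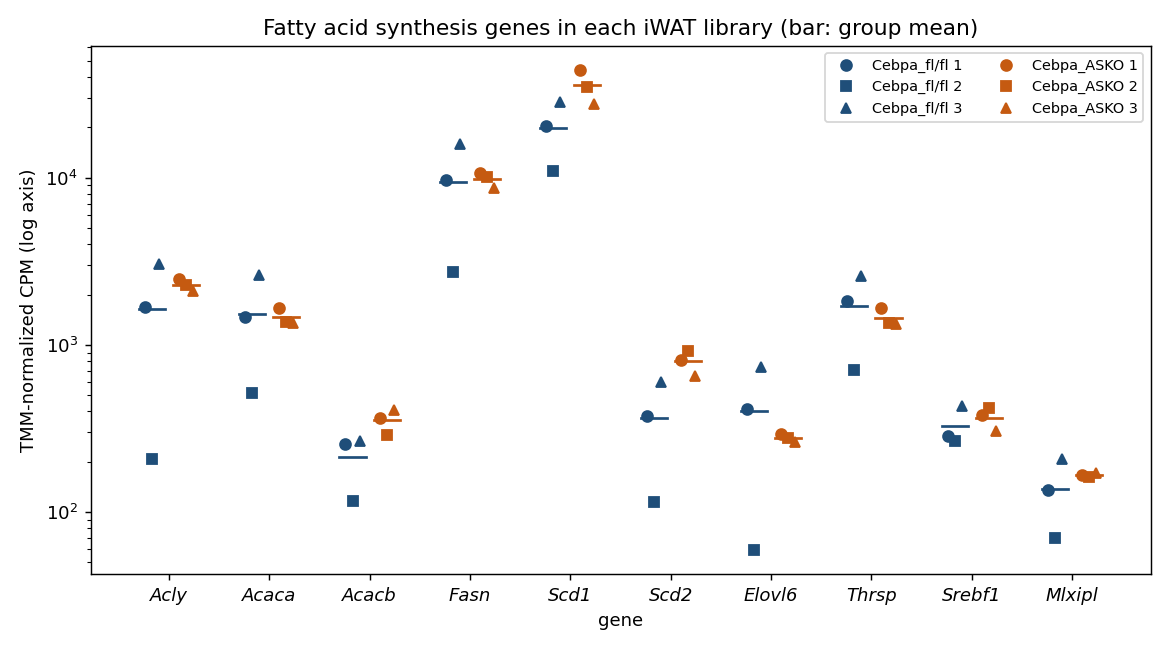
TMM-normalized CPM on a log axis for the 10 fatty acid synthesis genes, with 1 point per library (circle, square and triangle for replicates 1, 2 and 3) and a bar at the mean of the 3 libraries of each genotype. The square of Cebpa_fl/fl 2 is the lowest point for all 10 genes, while the 3 Cebpa_ASKO points span from 1.07-fold for *Mlxipl* to 1.59-fold for *Scd1*.

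*Acly*, on chromosome 11 of GRCm38 from 100476353 to 100528000, supplies the cytosolic acetyl-CoA from which the pathway starts. Its level was 1685, 208 and 3046 CPM in Cebpa_fl/fl 1, 2 and 3, and 2492, 2288 and 2100 CPM in Cebpa_ASKO 1, 2 and 3. The controls spanned a 14.6-fold range, the widest of the 10 genes, and the knockouts a 1.19-fold range that lay inside it. Cebpa_fl/fl 2 held 8.81% of the mean of the other controls. Its log2 fold change was 0.48 (95% interval -1.39 to 2.35, Benjamini-Hochberg adjusted p = 0.811 by edgeR's quasi-likelihood test), and without Cebpa_fl/fl 2 it was -0.05 (-0.71 to 0.60).

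The carboxylase genes differed from each other. *Acaca*, on chromosome 11 from 84129672 to 84401651, encodes the cytosolic acetyl-CoA carboxylase that feeds fatty acid synthase, and it was 1463, 515 and 2602 CPM in the controls and 1661, 1366 and 1359 CPM in the knockouts. All 3 knockout values lay between the lowest and the highest control, and the log2 fold change was -0.06 (95% interval -1.30 to 1.17, adjusted p = 0.968 by edgeR's quasi-likelihood test) and -0.49 without Cebpa_fl/fl 2 (-1.12 to 0.15). *Acacb*, on chromosome 5 from 114146535 to 114250761, encodes the carboxylase at the outer mitochondrial membrane, whose malonyl-CoA is best known for restraining the entry of fatty acids into mitochondria. Its level was 257, 116 and 266 CPM in Cebpa_fl/fl and 367, 289 and 406 CPM in Cebpa_ASKO. Each knockout library was above each control library, and Cebpa_fl/fl 1 and 3 differed by 1.04-fold, the closest of the 10 genes. The log2 fold change of *Acacb* was 0.73 (95% interval -0.03 to 1.496, adjusted p = 0.270 by edgeR's quasi-likelihood test), the lowest adjusted p of the 10 genes, and 0.42 without Cebpa_fl/fl 2 (0.03 to 0.82, adjusted p = 0.199).

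Skeletal muscle, where *Acacb* is the main carboxylase gene, left transcripts in these libraries. Of 10 skeletal muscle markers, 8 were called higher in Cebpa_ASKO, and their sum was 537 to 736 CPM in Cebpa_fl/fl and 1807 to 5273 CPM in Cebpa_ASKO. The highest sum was that of Cebpa_ASKO 2, which had the lowest *Acacb* level of the knockouts, and the lowest was that of Cebpa_ASKO 3, which had the highest *Acacb* level. The part of muscle transcripts in the *Acacb* values was not tested. The ratio of *Acaca* to *Acacb* in the authors' TPM, a level per transcript length, was 4.73, 3.45 and 8.31 in Cebpa_fl/fl and 3.98, 4.02 and 2.92 in Cebpa_ASKO. The genotypes overlapped in this ratio (exact two-sided permutation test, p = 0.3, adjusted p = 0.4 over the 4 ratios and sums tested in this way, where 3 against 3 libraries allow no p below 0.1). The log2 difference of the ratio, Cebpa_ASKO minus Cebpa_fl/fl, was -0.51 with all libraries and -0.80 without Cebpa_fl/fl 2 (p = 0.1 by the same exact test, the smallest that 3 against 2 libraries allow).

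*Fasn*, on chromosome 11 from 120805846 to 120824547, encodes the enzyme that assembles palmitate, and per transcript length it was the gene of the 10 with the highest level after *Scd1* in both genotypes. It measured 9648, 2743 and 15806 CPM in Cebpa_fl/fl, and 10670, 10114 and 8671 CPM in Cebpa_ASKO. The means were 9399 ± 6535 and 9818 ± 1032 CPM (SD, n = 3 each). The knockout values fell close to Cebpa_fl/fl 1, between the extremes of the controls. This gave a log2 fold change of 0.06 (95% interval -1.32 to 1.45, adjusted p = 0.971 by edgeR's quasi-likelihood test), an interval that holds changes in either direction. Without Cebpa_fl/fl 2 it was -0.38 (-1.09 to 0.33). *Thrsp*, on chromosome 7 from 97412938 to 97417730, encodes Spot 14, a small protein of lipogenic tissues that promotes fatty acid synthesis. Its level was 1841, 705 and 2577 CPM in the controls and 1665, 1352 and 1335 CPM in the knockouts. All 3 knockouts were below Cebpa_fl/fl 1 and 3 and above Cebpa_fl/fl 2. For *Thrsp* this gave a log2 fold change of -0.24 (95% interval -1.27 to 0.80, adjusted p = 0.835 by edgeR's quasi-likelihood test) and -0.62 without Cebpa_fl/fl 2 (-1.11 to -0.13, adjusted p = 0.146).

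The desaturases stood at the upper end. *Scd1*, on chromosome 19 from 44394455 to 44407879, encodes the main stearoyl-CoA desaturase of fat cells, and per transcript length it had the highest level of the 10 genes in both genotypes. It was 20220, 11003 and 28395 CPM in Cebpa_fl/fl and 44027, 34938 and 27661 CPM in Cebpa_ASKO. In CPM the lowest knockout lay just under the highest control, while in the authors' TPM the genotypes did not overlap, with 4828, 2955 and 7279 TPM against 10608, 9581 and 7788 TPM. With all libraries the log2 fold change was 0.84 (95% interval -0.26 to 1.93, adjusted p = 0.381 by edgeR's quasi-likelihood test) and 0.54 without Cebpa_fl/fl 2 (-0.35 to 1.43). *Scd2*, on the same chromosome from 44293674 to 44306864, encodes another desaturase that is prominent in brain and in developing tissues. Its level was 378, 115 and 604 CPM in the controls and 814, 922 and 652 CPM in the knockouts. Each knockout library was above each control library, and the mean in Cebpa_ASKO was 218% of the control mean. For *Scd2* the fitted log2 fold change was 1.12 (95% interval -0.15 to 2.40, adjusted p = 0.312 by edgeR's quasi-likelihood test), the highest of the 10, and 0.69 without Cebpa_fl/fl 2 (0.09 to 1.29, adjusted p = 0.176).

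*Acacb* and *Scd2* were the 2 of the 10 genes in which each knockout library exceeded each control library in CPM, a pattern found in 12.9% of all genes tested. None of the 10 showed the opposite pattern, found in 13.2%. The mammary gland lies within the inguinal depot of female mice. The sum of 10 markers of its epithelium was 593 to 1203 CPM in Cebpa_fl/fl and 1564 to 1738 CPM in Cebpa_ASKO. Of the 10, 9 were tested, 0 were called by edgeR, 6 had an unadjusted p below 0.05 and 5 were higher in each Cebpa_ASKO library than in each control library. In Cebpa_fl/fl 1, 2 and 3 this sum was 848, 593 and 1203 CPM. That is the order of the controls in all 10 fatty acid synthesis genes, and so is not particular to *Scd2* and *Acacb*. In Cebpa_ASKO 1, 2 and 3 the epithelium sum was 1738, 1564 and 1699 CPM. It was lowest in Cebpa_ASKO 2, where *Acacb* was also the lowest of the knockouts and *Scd2* the highest. Of the 9 tested, 8 had a log2 fold change above 0, with a median of 0.78 over the 9. In the same list the milk protein gene *Csn2* was at or below 0.551 CPM in every library. The part of this epithelium in the *Scd2* and *Acacb* values was not tested. The *Scd1* to *Scd2* ratio in TPM was 60.6, 109 and 53.4 in Cebpa_fl/fl and 61.4, 43.0 and 48.1 in Cebpa_ASKO (exact two-sided permutation test, p = 0.3, adjusted p = 0.4), so that *Scd1* dominated in all 6 libraries. The log2 difference of this ratio was -0.49, and -0.18 without Cebpa_fl/fl 2 (p = 0.5 by the same exact test). The desaturase genes resemble each other, and 5.26% of the 31-base words of the main *Scd1* transcript also occur in that of *Scd2*, so a small share of the reads was divided between them by estimation. For the main *Acaca* transcript, 59.9% of the words also occur in the pseudogene *Gm5182*, to which the authors' table gave at most 2.03 TPM in any library.

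*Elovl6*, on chromosome 3 from 129532355 to 129638495, was the member with the lowest log2 fold change. Its level was 413, 59.2 and 738 CPM in Cebpa_fl/fl and 294, 278 and 264 CPM in Cebpa_ASKO. The knockouts were nearly equal, below Cebpa_fl/fl 1 and 3 and well above Cebpa_fl/fl 2, which held 10.3% of the mean of the other controls. The log2 fold change was -0.53 (95% interval -2.30 to 1.23, adjusted p = 0.773 by edgeR's quasi-likelihood test). It was -1.06 without Cebpa_fl/fl 2 (-1.63 to -0.48, adjusted p = 0.0613), which was the lowest adjusted p of any of the 10 genes in the main fit or in the 16 alternatives. In that fit without Cebpa_fl/fl 2, 4 of the 10 genes had an unadjusted p below 0.05 (*Elovl6* and *Thrsp* lower, *Acacb* and *Scd2* higher), against 22.2% of all genes, and 0 were called. The same pairs of genes were the ones in which the knockouts lay entirely below or entirely above the 2 remaining controls, patterns found in 18.1% and 22.3% of all genes tested. Cebpa_fl/fl 2 was singled out by its values for these 10 genes and not for the others. The shares over all genes are therefore not a like background, and the p-values and intervals without it are a description.

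Added together, *Acly*, *Acaca*, *Acacb*, *Fasn*, *Scd1*, *Scd2* and *Elovl6* reached 8272, 4062 and 13052 TPM in Cebpa_fl/fl and 14797, 13833 and 11482 TPM in Cebpa_ASKO. The genotypes overlapped in this sum, since Cebpa_ASKO 3 lay below Cebpa_fl/fl 3 (exact two-sided permutation test, p = 0.2, adjusted p = 0.4). The log2 difference of the sum was 0.81 with all libraries and 0.36 without Cebpa_fl/fl 2 (p = 0.3 by the same exact test). Ordered by mean TPM, *Scd1*, *Fasn*, *Thrsp*, *Acly* and *Acaca* held places 1 to 5 in both genotypes. *Elovl6* held place 7 in Cebpa_fl/fl, at 82.5 ± 70.4 TPM, and place 10 in Cebpa_ASKO, at 61.0 ± 2.65 TPM (SD, n = 3 each). *Scd2* held place 8 in Cebpa_fl/fl, at 81.0 ± 54.6 TPM, and place 6 in Cebpa_ASKO, at 186 ± 32.5 TPM. Neighbours in the order differed by less than the larger of their SDs in Cebpa_fl/fl, except *Scd1* from *Fasn* and *Thrsp* from *Acly*. In Cebpa_ASKO, where the spread was smaller, this was so for *Acacb* and *Elovl6* alone.

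**Figure D2:**
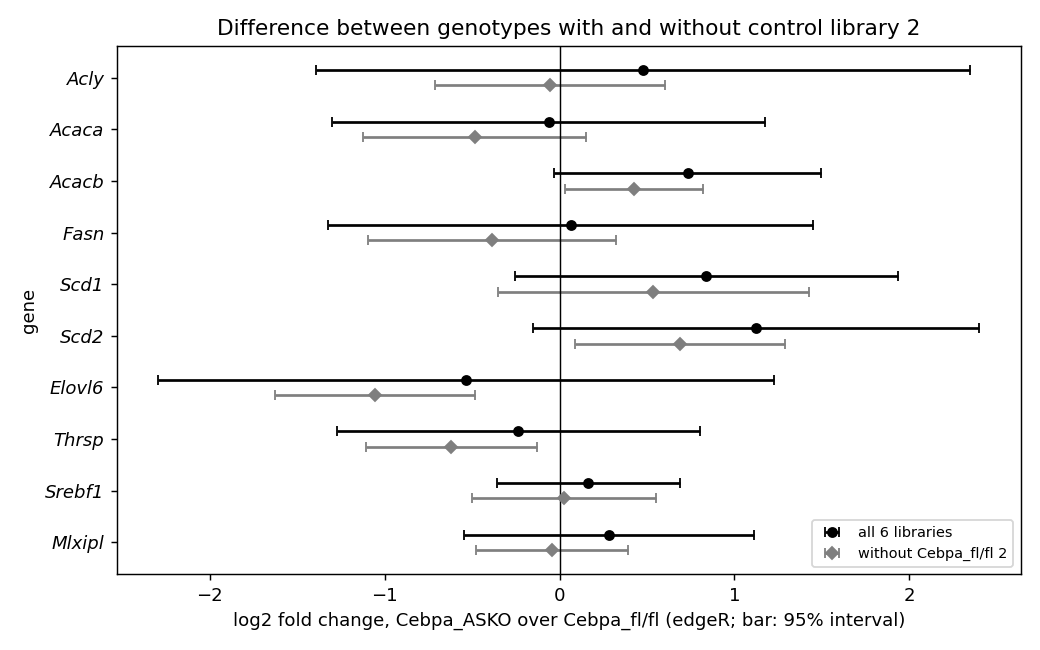
Log2 fold change of Cebpa_ASKO over Cebpa_fl/fl with its 95% interval for each of the 10 genes, from edgeR with all 6 libraries (black circles) and without Cebpa_fl/fl 2 (grey diamonds). All 10 intervals with 6 libraries include 0, the widest being those of *Acly* and *Elovl6*. Cebpa_fl/fl 2 was the lowest library for all 10 genes, so leaving it out had to move the values down. It also narrowed most intervals.

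The transcription factor genes stood at lower levels than most of the enzyme genes. *Srebf1*, on chromosome 11 from 60199089 to 60222581, was 286, 266 and 431 CPM in Cebpa_fl/fl and 380, 417 and 304 CPM in Cebpa_ASKO, the narrowest control range of the 10 genes at 1.62-fold. The genotypes overlapped, and the log2 fold change was 0.16 (95% interval -0.36 to 0.69, adjusted p = 0.763 by edgeR's quasi-likelihood test) and 0.024 without Cebpa_fl/fl 2 (-0.50 to 0.55). The ratio of *Srebf1* to *Srebf2*, the gene of the SREBP that mainly serves cholesterol synthesis, was 4.09, 4.85 and 7.20 in TPM in Cebpa_fl/fl and 5.63, 6.40 and 4.12 in Cebpa_ASKO (exact two-sided permutation test, p = 0.9, adjusted p = 0.9). The log2 difference of this ratio was 0.020, and -0.034 without Cebpa_fl/fl 2 (p = 1.0 by the same exact test). *Mlxipl*, on chromosome 5 from 135089890 to 135138382, was 135, 70.3 and 207 CPM in Cebpa_fl/fl and 167, 161 and 172 CPM in Cebpa_ASKO. The knockouts were the most even of the 10 genes, with a 1.07-fold range inside the 2.94-fold range of the controls. The log2 fold change of *Mlxipl* was 0.28 (95% interval -0.55 to 1.11, adjusted p = 0.738 by edgeR's quasi-likelihood test), and without Cebpa_fl/fl 2 it turned to -0.044 (-0.48 to 0.39).

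*Mlxipl* and *Srebf1* each have alternative first exons, and the deposited transcript values list a level for each. ChREBPβ starts at an upstream exon of *Mlxipl* and ChREBPα downstream of it, and the β form is known as a product of ChREBP activity itself. SREBP-1a starts upstream and SREBP-1c downstream in *Srebf1*. The RefSeq promoter windows of GRCm38.p6 at these starts, 250 bases before and 50 after each, are shown because the transcript values below refer to them, with E-boxes (CACGTG), sterol regulatory elements (TCACNCCAC) and CCAAT boxes (CCAAT) of either strand in capitals. Their positions are chr5:135089640-135089939 and chr5:135106641-135106940 on the plus strand for *Mlxipl*, and chr11:60220578-60220877 and chr11:60210422-60210721 on the minus strand for *Srebf1*.
Mlxipl upstream start: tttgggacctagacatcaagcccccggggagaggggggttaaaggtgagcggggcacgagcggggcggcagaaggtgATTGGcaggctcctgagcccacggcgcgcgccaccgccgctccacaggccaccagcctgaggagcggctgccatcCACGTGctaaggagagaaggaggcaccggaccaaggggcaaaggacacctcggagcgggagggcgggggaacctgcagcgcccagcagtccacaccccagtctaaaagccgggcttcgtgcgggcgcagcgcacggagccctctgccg
Mlxipl downstream start: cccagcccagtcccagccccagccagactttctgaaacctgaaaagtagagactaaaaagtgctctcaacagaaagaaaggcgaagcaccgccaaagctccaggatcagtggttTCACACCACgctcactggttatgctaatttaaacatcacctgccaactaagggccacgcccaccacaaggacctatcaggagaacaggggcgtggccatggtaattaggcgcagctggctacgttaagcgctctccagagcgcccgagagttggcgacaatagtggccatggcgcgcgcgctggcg
Srebf1 upstream start: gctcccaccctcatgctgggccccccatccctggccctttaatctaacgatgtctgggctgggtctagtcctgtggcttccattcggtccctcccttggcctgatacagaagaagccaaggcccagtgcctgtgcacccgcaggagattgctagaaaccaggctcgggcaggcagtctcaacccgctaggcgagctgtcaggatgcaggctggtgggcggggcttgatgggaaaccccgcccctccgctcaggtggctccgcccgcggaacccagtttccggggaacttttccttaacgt
Srebf1 downstream start: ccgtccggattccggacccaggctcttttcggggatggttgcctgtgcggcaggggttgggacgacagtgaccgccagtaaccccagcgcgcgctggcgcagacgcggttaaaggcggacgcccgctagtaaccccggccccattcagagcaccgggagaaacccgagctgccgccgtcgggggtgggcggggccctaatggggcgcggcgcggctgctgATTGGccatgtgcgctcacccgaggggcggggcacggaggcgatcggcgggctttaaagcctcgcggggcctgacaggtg

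The upstream *Mlxipl* window held an E-box 98 bases before the start, and the downstream *Mlxipl* window a sterol regulatory element 136 bases before it. Of the 32851 windows in the RefSeq table, 7.15% hold the E-box and 1.24% this form of the sterol element. Among the 11 windows of the 8 genes that the table covers, these were the only matches to either. *Scd1* and *Scd2* had no window. A CCAAT box was found in 7 of the 11 windows and in 37.4% of all windows, and a GC box (GGGCGG, either strand) in 4 of the 11 and in 35.7% of all. TTNNGCAA, a form of the C/EBP site, was found in 0 of the 11 windows and in 10.8% of all, which says only that these letters are not in these windows. The *Fasn* window, at chr11:120824498-120824797 on the minus strand, is shown for its 3 CCAAT boxes, of which 2 on opposite strands overlap.
Fasn: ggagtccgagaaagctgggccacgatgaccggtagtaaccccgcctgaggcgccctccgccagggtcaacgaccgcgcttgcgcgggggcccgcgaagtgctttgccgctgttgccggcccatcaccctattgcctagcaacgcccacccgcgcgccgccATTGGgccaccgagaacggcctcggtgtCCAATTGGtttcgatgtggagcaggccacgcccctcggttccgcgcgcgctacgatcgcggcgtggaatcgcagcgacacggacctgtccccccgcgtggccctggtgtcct

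The annotated *Mlxipl* transcript that begins at the upstream start was 4.23, 1.31 and 8.60 TPM in Cebpa_fl/fl and 12.1, 18.0 and 14.3 TPM in Cebpa_ASKO. Each knockout library was above each control library, by transcript level and also as a share of the gene's TPM, which had a mean of 6.31% in the controls and 15.1% in the knockouts. The full-length transcript that begins 17.03 kb downstream was 22.1, 13.9 and 37.99 TPM in Cebpa_fl/fl and 32.1, 34.1 and 33.6 TPM in Cebpa_ASKO, and the genotypes overlapped. A short coding entry that begins 26.7 kb downstream of the full-length start was 8.45, 6.85 and 15.5 TPM against 16.8, 16.2 and 19.1 TPM. It was higher in each knockout by level but not by share. Some entries annotated for nonsense-mediated decay were lower by share in each knockout, with means of 18.2% against 14.4% and 5.42% against 3.45%. The upstream transcript is a short entry of 412 bases that the annotation calls a processed transcript without a coding sequence. It rested on 39.5, 11.5 and 79.5 estimated counts in the controls, and 44.0% of its 31-base words occur in no other annotated transcript.

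For *Srebf1*, the transcripts of the SREBP-1a and SREBP-1c starts overlapped between the genotypes. The transcript from the upstream start was 49.2, 46.5 and 59.6 TPM in Cebpa_fl/fl and 54.5, 59.2 and 50.1 TPM in Cebpa_ASKO. The transcript from the downstream start was 13.4, 12.7 and 31.3 TPM in the controls and 16.9, 33.9 and 19.4 TPM in the knockouts. Their shares of the gene's TPM overlapped as well, and only 3.47% and 3.11% of their words are their own, so kallisto's division between them carries an uncertainty that the deposited values do not show. Of the other annotated *Srebf1* transcripts, 3 had shares that did not overlap between the genotypes, while their levels overlapped. How many transcripts of the whole annotation show such a pattern was not computed. A coding form that begins 13.4 kb downstream of the SREBP-1a start made up a mean of 20.1% in Cebpa_fl/fl and 25.5% in Cebpa_ASKO, and 0.620% of its words are its own. Short entries without a coding sequence that begin 1.98 kb upstream and 19.6 kb downstream of that start were lower by share in each knockout, with means of 3.75% against 2.90% and 8.66% against 6.36%.

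*Acacb* has coding transcripts from an upstream start, at position 114146535 of chromosome 5, and from a start 18.98 kb downstream. The upstream one was 15.5, 5.97 and 17.1 TPM in the controls and 17.8, 18.1 and 27.7 TPM in the knockouts. The downstream one was 0.348, 0.0694 and 1.82 TPM in the controls and 5.43, 5.12 and 9.96 TPM in the knockouts. Each knockout library was above each control library for both, and the downstream form made up a mean of 1.74% of the gene's TPM in Cebpa_fl/fl and 10.5% in Cebpa_ASKO. None of the words of the downstream transcript is its own, so that its level rests on how shared reads were divided. A retained-intron entry held the largest share of the gene's TPM, a mean of 56.3% in Cebpa_fl/fl and 47.8% in Cebpa_ASKO, and this share overlapped between the genotypes. By level that entry was higher in each knockout, with 22.7, 14.1 and 23.7 TPM in the controls and 32.6, 25.8 and 31.8 TPM in the knockouts. The main *Acaca* transcript was 150, 62.6 and 284 TPM against 180, 164 and 171 TPM, and a form that begins 22.3 kb upstream of it was 31.4, 9.06 and 60.8 TPM against 27.2, 29.3 and 26.9 TPM, with overlap in each. A short coding *Acaca* entry that begins 85.02 kb downstream of the main start was higher in each knockout by level and by share. Its level was 8.12, 1.98 and 12.96 TPM in Cebpa_fl/fl and 15.2, 14.4 and 15.8 TPM in Cebpa_ASKO. Its share of the gene's TPM had a mean of 3.38% in the controls and 6.67% in the knockouts. None of the words of this short entry is its own. The transcripts of *Mlxipl*, *Srebf1*, *Acacb* and *Acaca* were described without a test. The share of all annotated transcripts in which the genotypes did not overlap was not computed.

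**Figure D3:**
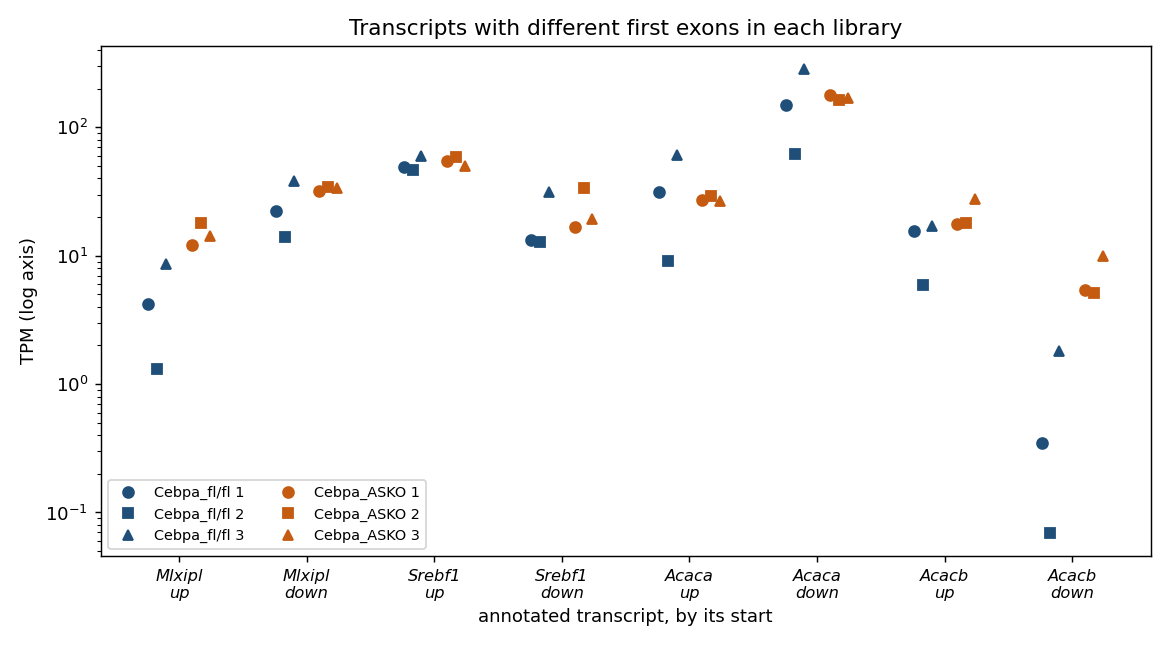
TPM on a log axis for pairs of annotated transcripts of *Mlxipl*, *Srebf1*, *Acaca* and *Acacb* that begin at different first exons, upstream (up) or downstream (down), with 1 point per library (circle, square and triangle for replicates 1, 2 and 3). The Cebpa_ASKO points of the upstream *Mlxipl* transcript lie between 12.1 and 18.0 TPM, above the controls, whose highest value is 8.60 TPM, while the downstream *Mlxipl* transcript and the *Srebf1* transcripts shown overlap.

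The genes varied together over the 6 libraries. Pearson's r of log2 CPM with *Fasn* was 0.988 for *Acaca*, 0.97 for *Acly*, 0.973 for *Elovl6*, 0.965 for *Mlxipl* and 0.949 for *Thrsp*. It was lower for *Scd2* (0.863), *Scd1* (0.812), *Acacb* (0.786) and *Srebf1* (0.752). These values describe 6 libraries that include 1 low library and 2 genotypes, and they share the scaling of each library. Outside the 10 genes, those most like *Fasn* among 10425 genes at or above a mean log2 CPM of 3 were *Ears2*, *Lactb2*, *Tmem79*, *Tkt* and *Gucd1*, with r from 0.986 to 0.999. *Tkt*, which is also in the list for NADPH supply, encodes transketolase of the pentose phosphate pathway and was 1774, 676 and 2741 CPM in Cebpa_fl/fl and 2355, 1809 and 1623 CPM in Cebpa_ASKO.

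Relative to *Fasn* within the same library, some genes separated the genotypes. These ratios were chosen after the values were seen and are given without a test. The share of all genes whose ratio to *Fasn* separates the genotypes was not computed. The ratio of *Scd2* to *Fasn* in TPM was 0.0308, 0.0302 and 0.0326 in Cebpa_fl/fl, with Cebpa_fl/fl 2 close to the other controls, and 0.0581, 0.0757 and 0.0653 in Cebpa_ASKO. The ratio of *Acly* to *Fasn* was 0.178, 0.0726 and 0.213 against 0.233, 0.252 and 0.275. The ratio of *Thrsp* to *Fasn* was 0.721, 0.891 and 0.669 against 0.571, 0.535 and 0.641, lower in each knockout. The *Acaca* to *Fasn* ratio stayed between 0.0752 and 0.0909 in all 6 libraries. *Scd1* to *Fasn* was 1.87, 3.29 and 1.74 against 3.57, 3.25 and 3.14, and Cebpa_fl/fl 2 alone among the controls reached the knockouts. The ratios of *Acacb*, *Elovl6*, *Srebf1* and *Mlxipl* to *Fasn* overlapped between the genotypes.

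**Figure D4:**
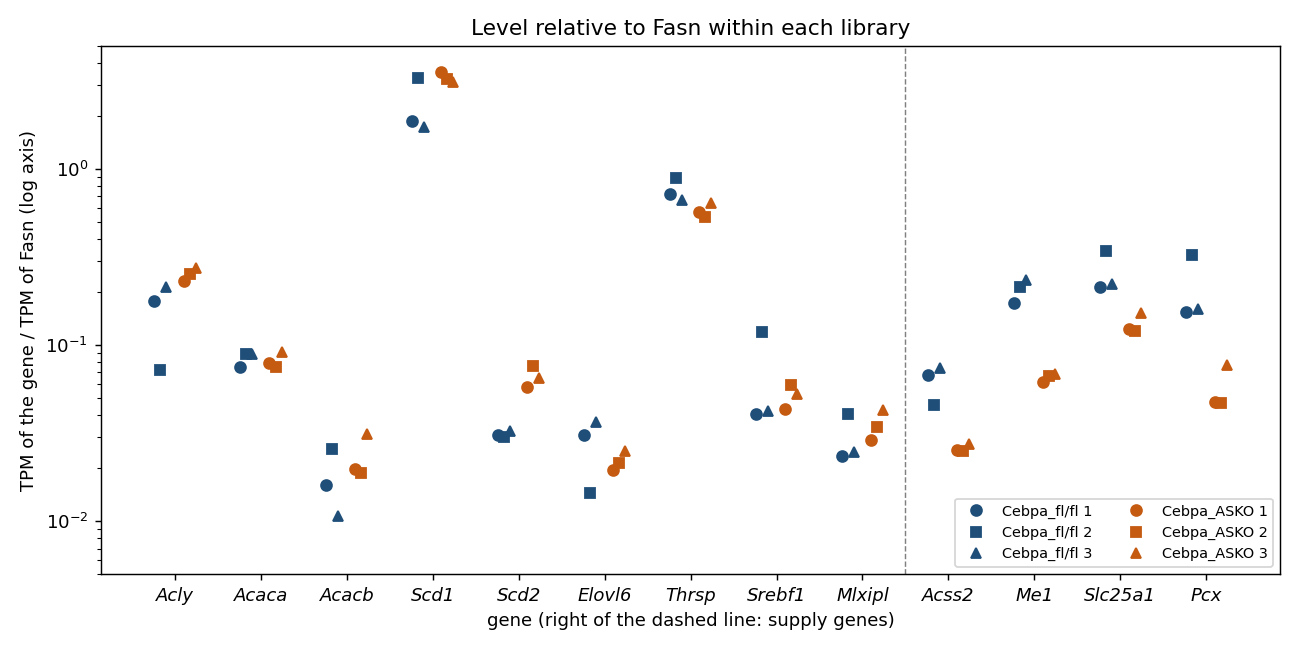
TPM of each gene divided by the TPM of *Fasn* in the same library, on a log axis, with 1 point per library (circle, square and triangle for replicates 1, 2 and 3) and, right of the dashed line, 4 genes that supply the pathway. The *Scd2* ratio lies at or below 0.0326 in Cebpa_fl/fl and at or above 0.0581 in Cebpa_ASKO, and the *Me1* ratio at or above 0.173 in Cebpa_fl/fl and at or below 0.0689 in Cebpa_ASKO.

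The genes that supply the pathway were followed in 7 lists of known function with 66 genes, of which 62 were tested. edgeR's quasi-likelihood test called 2 of the 62 higher and 7 lower, beside 1.39% higher and 3.84% lower of all genes tested, and the median log2 fold change of the 62 was -0.04. The counts for single lists are of few genes and are given as a description. In the list for citrate and acetyl-CoA, 2 of 9 genes were called lower and 0 higher. *Pcx*, which encodes pyruvate carboxylase and refills mitochondrial oxaloacetate, was 1366, 901 and 2140 CPM in Cebpa_fl/fl and 487, 418 and 559 CPM in Cebpa_ASKO (log2 fold change -1.59, adjusted p = 0.0409 by edgeR's quasi-likelihood test). The cytosolic aconitase gene *Aco1* fell by 1.14 on the log2 scale (adjusted p = 0.00387 by the same edgeR test). In the list for NADPH, 1 of 6 was called lower, *Idh1*, the cytosolic isocitrate dehydrogenase gene, with 469, 347 and 490 CPM in Cebpa_fl/fl and 209, 191 and 204 CPM in Cebpa_ASKO (log2 fold change -1.11, adjusted p = 0.0101 by edgeR's quasi-likelihood test).

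Several supply genes that were not called, named here after their values were seen, lay low in the knockouts beside *Fasn*. *Me1*, the cytosolic malic enzyme gene and a source of NADPH, was 1249, 478 and 2511 CPM in Cebpa_fl/fl and 506, 477 and 406 CPM in Cebpa_ASKO. The knockouts lay near Cebpa_fl/fl 2 and below the other controls, and the log2 fold change was -1.61 (95% interval from edgeR's fit -2.90 to -0.32, adjusted p = 0.165 by edgeR's quasi-likelihood test). The ratio of *Me1* to *Fasn* in TPM was 0.173, 0.213 and 0.234 in Cebpa_fl/fl and 0.0614, 0.0664 and 0.0689 in Cebpa_ASKO. For the acetyl-CoA synthetase gene *Acss2* this ratio was 0.0676, 0.0455 and 0.0737 against 0.0253, 0.0250 and 0.0276, and for the mitochondrial citrate carrier gene *Slc25a1* it was 0.214, 0.343 and 0.222 against 0.123, 0.120 and 0.153. All 3 ratios were lower in each knockout than in each control, whereas *Acly*, the next enzyme after the carrier, was higher relative to *Fasn* in each knockout. In CPM the genotypes overlapped for *Me1*, *Acss2*, *Slc25a1* and *Acly*. The share of all genes with such a separation relative to *Fasn* was not computed.

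Among the regulators around the 10 genes, *Nr1h3* was called lower in Cebpa_ASKO. It encodes LXRα, a nuclear receptor that binds the *Srebf1* promoter, and was 73.3, 79.7 and 79.8 CPM in Cebpa_fl/fl and 32.2, 31.8 and 30.1 CPM in Cebpa_ASKO (log2 fold change -1.31, adjusted p = 0.000724 by edgeR's quasi-likelihood test). *Nr1h3* and the lipogenic target *Pnpla3*, which fell by 1.87 on the log2 scale (adjusted p = 0.0287 by the same edgeR test), were the called genes among 10 tested in the list of ChREBP partners, LXR, USF and sugar-responsive targets. In the list of SREBP processing, 0 of 6 were called by edgeR and 1 had an unadjusted p below 0.05, against 19.8% of all genes. It was *Insig1*, at 167, 176 and 178 CPM in Cebpa_fl/fl and 251, 289 and 181 CPM in Cebpa_ASKO. *Mid1ip1*, which encodes a relative of Spot 14 that promotes carboxylase polymers, was the called gene among 7 tested in the malonyl-CoA list. It was 43.7, 39.3 and 53.6 CPM in Cebpa_fl/fl and 112, 104 and 69.6 CPM in Cebpa_ASKO (log2 fold change 1.07, adjusted p = 0.0348 by edgeR's quasi-likelihood test), while *Thrsp* was not called. In the AMPK list, whose kinase inhibits the carboxylases, *Prkab2* rose by 1.07 on the log2 scale and *Prkaa1* fell by 0.42, with the other 6 not called. *Prkab2* was 19.4, 20.5 and 20.4 CPM in Cebpa_fl/fl and 41.9, 47.5 and 37.6 CPM in Cebpa_ASKO, and the order of the knockouts was that of their skeletal muscle marker sums of 2799, 5273 and 1807 CPM. The part of muscle transcripts in this rise was not tested. In the list of other elongases and desaturases, *Hacd1*, a 3-hydroxyacyl-CoA dehydratase gene, fell by 0.83 on the log2 scale and the other 15 tested were not called.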

How the data were processed

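For each library the authors deposited an estimated count and a TPM (a length-normalized share of the library) for every transcript, as given by kallisto 0.44.0, and TPM summed per gene symbol. Per the labels, RNA was enriched for poly-A and libraries were made with TruSeq chemistry, and the submitters' processing notes name the builds GRCh38.p12 and GRCm38.p6. The annotation release and the use of strand are not given in the sources used here. The study's methods name DESeq2, which was run as an alternative.

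Transcripts were matched by identifier to GENCODE M21 (116816 of 118489), and estimated counts were summed for 35999 of 36144 symbols and rounded. edgeR 4.0.16 in R 4.3.3 was run with TMM scaling, its default filter (16069 genes kept) and the quasi-likelihood test over all 6 libraries, with Benjamini-Hochberg adjustment over all genes tested. Genes with an adjusted p below 0.05 are termed called. TMM factors were 0.956 to 1.06. The 95% intervals come from that fit. Exact permutation tests ran over 20 arrangements. Limits of counting played no part for the 10 genes, whose lowest count in any library was 2791. Replicates of a genotype differed by more than sampling noise (chi-square of 27.6 or more per degree of freedom), so each was used as a separate sample, and 0 columns belonged to other samples.

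The alternatives were DESeq2 1.42.0, its size factors in edgeR, total counts, any gene with 1 count or more, a minimum of 10 counts in each library, a transcript length offset, limma 3.58.1 on log2(TPM + 1) and log2(TPM + 0.1) where 3 libraries reached a TPM of 1, limma without that filter, the replicate number as a block, and each library left out in turn. A pseudocount understates changes of low genes. The fits were tested on simulated data.

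The members, the pathway and marker lists and the rule for named genes were chosen with earlier results of these data known. The rule named the 10 genes, each called gene of the pathway lists and, by Pearson's r over the 6 libraries, the 5 genes most like *Fasn*, without predicted, Rik and mitochondrial genes. Levels of 31-base words shared between transcripts were counted in GENCODE M21. Promoter windows came from RefSeq. Python 3.11.15, pandas 2.3.3 and numpy 2.4.6 were used.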

Additional observations from a re-analysis of the deposited data

How the results depend on the processing

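Under all 16 alternatives 0 of the 10 genes were called, and *Cebpa* was called in each, with log2 fold changes from -3.67 to -3.43. The count of called genes over the whole table was 1813 with DESeq2 (37.3% of them higher, against 26.5%), 359 with limma without a filter, 370 with the replicate block, and 311 to 922 with 1 library left out (311 without Cebpa_ASKO 1, 363 without Cebpa_ASKO 2, 502 without Cebpa_fl/fl 3, 508 without Cebpa_fl/fl 1). With 1 library left out, log2 fold changes ran from -0.49 to 0.56 for *Acaca*, -0.055 to 1.28 for *Acly*, -1.06 to 0.24 for *Elovl6*, -0.38 to 0.66 for *Fasn*, -0.044 to 0.70 for *Mlxipl* and -0.62 to 0.19 for *Thrsp*, with the lowest value of each from the fit without Cebpa_fl/fl 2 and the highest from that without Cebpa_fl/fl 3. *Acaca* was 0.012 with the length offset, 0.34 in the 3 limma settings and 0.22 with the replicate block. *Elovl6* was 0.16 with limma on log2(TPM + 0.1), 0.14 with limma on log2(TPM + 1) with or without the filter, and 0.0087 with the replicate block. *Thrsp* was 0.0099 and 0.0098 with limma at the 2 pseudocounts, and *Fasn* was -0.0011 without Cebpa_ASKO 1. With 1 library left out, the median of the 10 genes ran from -0.05 to 0.68, and the log2 ratio of *Srebf1* to *Srebf2* ran from -0.16 to 0.25, against 0.020 with all libraries. The cause of these shifts was not tested. *Acacb*, *Scd1*, *Scd2* and *Srebf1* stayed above 0 in all 16.

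The values gave no sign that replicate numbers pair the samples. Libraries of the same number had correlations of 0.066, 0.028 and -0.20 of their deviations from the group means, and not every library correlated best with its own number. With 3 libraries a genotype, these correlations cannot show whether mice were paired by litter or handling. The replicate block changed no call among the 10 genes. No scaling moved the median of all genes by over 0.1 on the log2 scale. Depth did not limit the 10 genes, whereas 3 mice a genotype with this control spread leave intervals of more than 1 log2 unit for each.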
